A study of Homo sapiens with 16 samples.

Results

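The 9 genes ADAM8, ADAM9, ADAM10, ADAM12, ADAM15, ADAM17, ADAM19, ADAMTS1 and ADAMTSL4 were followed across the conditions of an array study of human bronchial epithelial cells. They were taken by gene symbol, and every probe without a control role that carried one of these symbols was included, which gave 20 of the 58201 probes and 9 of the 42665 gene names on the array. Of the 20 probes, 18 passed the filter on dim probes (well above background on 4 or more of the 16 arrays) and were tested among 34599 probes. The other two both belong to ADAM12. A gene with several probes was counted by its probe of highest mean signal, called its brightest probe below, and its other probes are given beside it.

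ADAM proteins are membrane-anchored proteases with a metalloprotease and a disintegrin domain. Many of them cut other membrane proteins close to the cell surface, a process called ectodomain shedding that releases growth factors, cytokines and adhesion molecules from epithelial cells. ADAMTS proteins are their secreted relatives with thrombospondin repeats, which act on proteoglycans and other molecules of the extracellular matrix. ADAMTS-like proteins, such as ADAMTSL4, resemble ADAMTS proteins but lack the protease domain.

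16HBE is a line of human bronchial epithelial cells immortalised with the SV40 large T antigen. The cells with wild-type MET (16HBE-WT) were compared with 16HBE-ex14, a single genome-edited clone in which MET loses its exon 14, so that the edit and the clone cannot be told apart. All cells were kept without serum for 2 h, and HGF, the ligand of the MET receptor, was then given at 20 ng/mL for 24 h or left out. Each genotype without and with HGF (written +HGF) gave 4 conditions of 4 one-colour Agilent arrays, laid out on 2 slides with 2 arrays of every condition on each slide. The methods of the study describe replicates grown a week apart, but the array labels do not tie an array to a week, and the replicate numbers used here are only names. The titles of the 4 16HBE-WT+HGF arrays carry YY in place of WT, and these arrays were placed by their description and genotype labels, which give WT.

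A level below is the log2 of the processed spot intensity minus the 75th percentile of its array, so that 0 is the 75th percentile. Levels of different probes are not read against each other as amounts of RNA, since probes differ in their hybridisation. They were set together to pick the brightest probe, to sum marker lists and to compare the changes of probes of the same gene. A difference was called when the adjusted p of limma (Benjamini-Hochberg over all tested probes) was below 0.05 and the fold change was above 1.5. The 75th percentile ran from 139.5 to 262.8 intensity units over the 16 arrays, and the share of probes well above background from 49% to 60.3%. All 6 epithelial markers were well above background on every array, among them EPCAM and CDH1. The fibroblast genes COL1A2 and DCN and the endothelial genes PECAM1 and TEK were so on none. Other markers of these lists were not silent. The fibroblast genes COL1A1 and PDGFRB, the endothelial genes CDH5 and VWF and the leukocyte genes PTPRC and CD3E were well above background on all 16 arrays. Of the fibroblast markers, LUM was well above background on all 8 16HBE-WT arrays and on no 16HBE-ex14 array, and the summed level of the fibroblast list (linear units, relative to the 75th percentile) was 0.535 to 1.02 in 16HBE-WT and 0.313 to 0.497 in 16HBE-ex14, whose part in the differences between the genotypes was not tested. No gene of the epithelial, fibroblast, leukocyte or endothelial markers was called with HGF, and between the untreated genotypes the T cell marker CD3E was lower in 16HBE-ex14. LUM was called lower too, but it passed the filter through the arrays on which it was high. Its call is therefore not read as a result. The array has 1 probe for MET, on chromosome 7 at 116438290 to 116438349 of hg19. Its level was 4.97 ± 0.17 in 16HBE-WT and 5.10 ± 0.15 in 16HBE-ex14 (SD, n = 4), and it says nothing about exon 14. On these bulk arrays, a smaller share of expressing cells and less RNA per cell cannot be told apart.

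With HGF, 4 of the 9 genes changed in 16HBE-ex14 cells: ADAM8 and ADAM19 rose, and ADAMTS1 and ADAMTSL4 fell. ADAM9, ADAM10, ADAM12, ADAM15 and ADAM17 were not called. Over the whole array, 2.11% of the 26368 genes tested by 1 probe were called in this comparison. The members were picked with results of these arrays known, and ADAM8, ADAM19 and ADAMTSL4 are genes that the study singled out on the same samples, so this count is not independent evidence that the family responded. By probe, 7 of the 18 tested were called, 3 higher and 4 lower, against 2.00% of all probes. The median difference of the 9 genes was -0.14 on the log2 scale, with a range from -0.73 to 1.59, and that of all tested genes was 0.06. For 5 of the 9 genes the 4 arrays with HGF did not overlap the 4 without it, against 8.94% of all genes.

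In 16HBE-WT cells, none of the 9 genes was called with HGF by limma, as was the case for every probe on the array (0%), and no member was called under any alternative tried. When the p values of the 5 contrasts were adjusted together, 85 of the 34599 probes were called, and ADAMTS1 passed the limit on p (adjusted p = 0.0473) but not that on fold. The smallest adjusted p among the members was 0.864, and 1 of 9 genes, ADAMTS1, had an unadjusted p below 0.05, against 4.71% of all genes. The arrays with and without HGF did not overlap for 2 of the 9 genes, ADAM8 (higher) and ADAMTS1 (lower), against 2.50% of all genes.

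**Figure D1:**
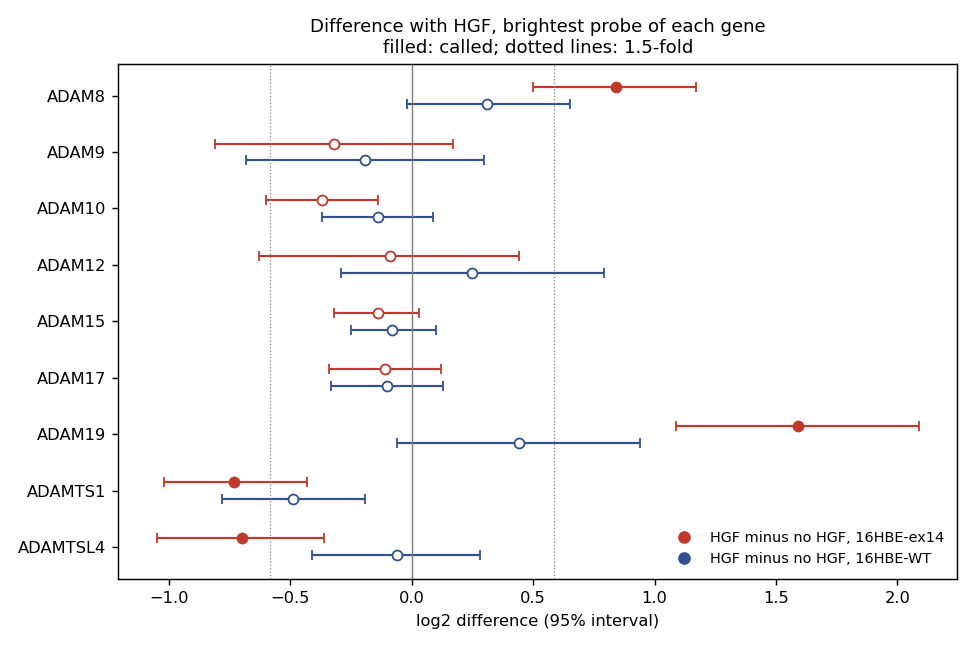
Log2 difference between arrays with and without HGF (horizontal axis) for the brightest probe of each of the 9 genes, in 16HBE-ex14 (red) and 16HBE-WT (blue), with 95% intervals from limma. Filled points were called, and dotted lines mark a 1.5-fold change. ADAM19 had the largest rise at 1.59, and the filled points are ADAM8, ADAM19, ADAMTS1 and ADAMTSL4 in 16HBE-ex14.

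ADAM8 is a membrane protease best known from leukocytes, where it sheds adhesion molecules, and it is also made by activated epithelium. Its brightest probe lies on chromosome 10, at chr10:135075992-135076051 of hg19 on the minus strand, and was designed on the transcript NM_001109. The 4 levels were 6.40, 6.59, 6.60 and 6.85 in 16HBE-WT and 6.90, 6.86, 6.88 and 7.05 in 16HBE-WT+HGF. They were 6.81, 6.63, 7.42 and 7.02 in 16HBE-ex14 and 7.73, 7.59, 8.09 and 7.81 in 16HBE-ex14+HGF. All 4 arrays of 16HBE-ex14+HGF thus lay above the 12 others, and the untreated 16HBE-ex14 arrays overlapped both 16HBE-WT conditions. The rise with HGF was 0.84 ± 0.16 (log2, SE) in 16HBE-ex14, 1.79-fold (limma, adjusted p = 0.0102), with 0.95 on slide 1 and 0.73 on slide 2. In 16HBE-WT the difference was 0.31 ± 0.16 (adjusted p = 1). Between the genotypes with HGF, ADAM8 was 1.84-fold higher in 16HBE-ex14 (0.88 ± 0.16, adjusted p = 0.00108). Without HGF the difference of 0.36 ± 0.16 was not called (adjusted p = 0.135). With no scaling it was 0.73 and called (adjusted p = 0.0187), but the median difference of all probes was then 0.35. The call for HGF was lost with scaling to the array median (0.68, adjusted p = 0.069) or to the spike-in RNA (0.77, adjusted p = 0.0574), with no scaling and with only the 8 arrays compared, and was kept without each of the 16 arrays in turn.

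Both other ADAM8 probes were designed on NM_001164489, one at base 1647 (chr10:135084254-135084387) and one at base 567 (chr10:135086790-135086849). They are shown because they read other stretches of the gene than the brightest probe, 5′ to 3′ on the transcript strand and as the array files give them.
ADAM8, base 1647: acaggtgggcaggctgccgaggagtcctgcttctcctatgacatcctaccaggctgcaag
ADAM8, base 567: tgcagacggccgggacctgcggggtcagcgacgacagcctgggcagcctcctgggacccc
The first spans 134 bases of the genome with its 60 bases, so that 74 bases between its ends are not part of it. Its difference with HGF in 16HBE-ex14 was 0.95 ± 0.27 (adjusted p = 0.0841) and that of the second was 0.47 ± 0.16 (adjusted p = 0.147). Neither was called, and in both the conditions overlapped. The probe at base 1647 was called between the genotypes with HGF (1.12 ± 0.27, adjusted p = 0.00862), whereas that at base 567 differed by 0.29 ± 0.16 (adjusted p = 0.224). With slide as a block, and under 4 other alternatives, the first was also called for HGF in 16HBE-ex14 (adjusted p = 0.0103), and it was called without 16HBE-ex14 replicate 3 (1.16, adjusted p = 0.0248), the untreated array on which ADAM8 was highest. Without 16HBE-ex14+HGF replicate 1 the second was called too (0.60, adjusted p = 0.0489).

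ADAM19, or meltrin beta, is a membrane protease that takes part in the processing of neuregulins. Its brightest probe lies at chr5:156904475-156904534 on the minus strand (NM_033274, base 6306). The levels were 1.36, 2.01, 2.21 and 2.00 in 16HBE-WT and 2.28, 2.10, 2.42 and 2.54 in 16HBE-WT+HGF. They were 1.57, 1.43, 2.37 and 1.19 in 16HBE-ex14 and 3.12, 2.99, 3.50 and 3.30 in 16HBE-ex14+HGF. The 16HBE-ex14+HGF arrays stood above all others, and the remaining 3 conditions overlapped, with 1 high array among the untreated 16HBE-ex14. With HGF the gene rose 3.01-fold in 16HBE-ex14 (1.59 ± 0.23, adjusted p = 0.00232), the largest difference among the 9 genes by their brightest probes, with 1.56 and 1.62 on the 2 slides. In 16HBE-WT the difference was 0.44 ± 0.23 (adjusted p = 1), with 0.50 and 0.38 on the 2 slides. ADAM19 was also 1.86-fold higher in 16HBE-ex14+HGF than in 16HBE-WT+HGF (0.89 ± 0.23, adjusted p = 0.0131), while without HGF it differed by -0.26 ± 0.23 (adjusted p = 0.518). Both calls held under all 13 other corrections, scalings, filters, blocks and priors tried and without each array in turn. With treat, which calls only changes shown to exceed 1.5-fold, neither was made (adjusted p = 0.245 and 1).

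The second ADAM19 probe (NM_033274, base 2361, chr5:156916141-156917323) is shown because its 60 bases join stretches 1123 bases apart in the genome.
ADAM19, base 2361: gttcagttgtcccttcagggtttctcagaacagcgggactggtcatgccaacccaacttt
It is a dim probe that was well above background on 14 of the 16 arrays. The 4 levels were -3.63, -4.05, -3.05 and -5.42 in 16HBE-ex14 and -2.37, -2.37, -1.70 and -2.27 in 16HBE-ex14+HGF. The groups did not overlap, and the rise of 1.86 ± 0.37 was called (3.63-fold, adjusted p = 0.0138). It was not called without 16HBE-ex14+HGF replicate 3 (1.70, adjusted p = 0.0556) or with only the arrays compared (1.86, adjusted p = 0.108). With another background correction (normexp) it came to 0.50, under the fold limit. The level of -5.42 on 16HBE-ex14 replicate 4 lies below -4.42, the lowest level well above background on that array. In 16HBE-WT the difference was 0.15 ± 0.37. Without 16HBE-ex14 replicate 3 or 4, this probe was also called between the genotypes with HGF (0.97 in both fits, adjusted p = 0.0424 and 0.00816), and without replicate 3 between those without HGF (-1.07, adjusted p = 0.049).

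**Figure D2:**
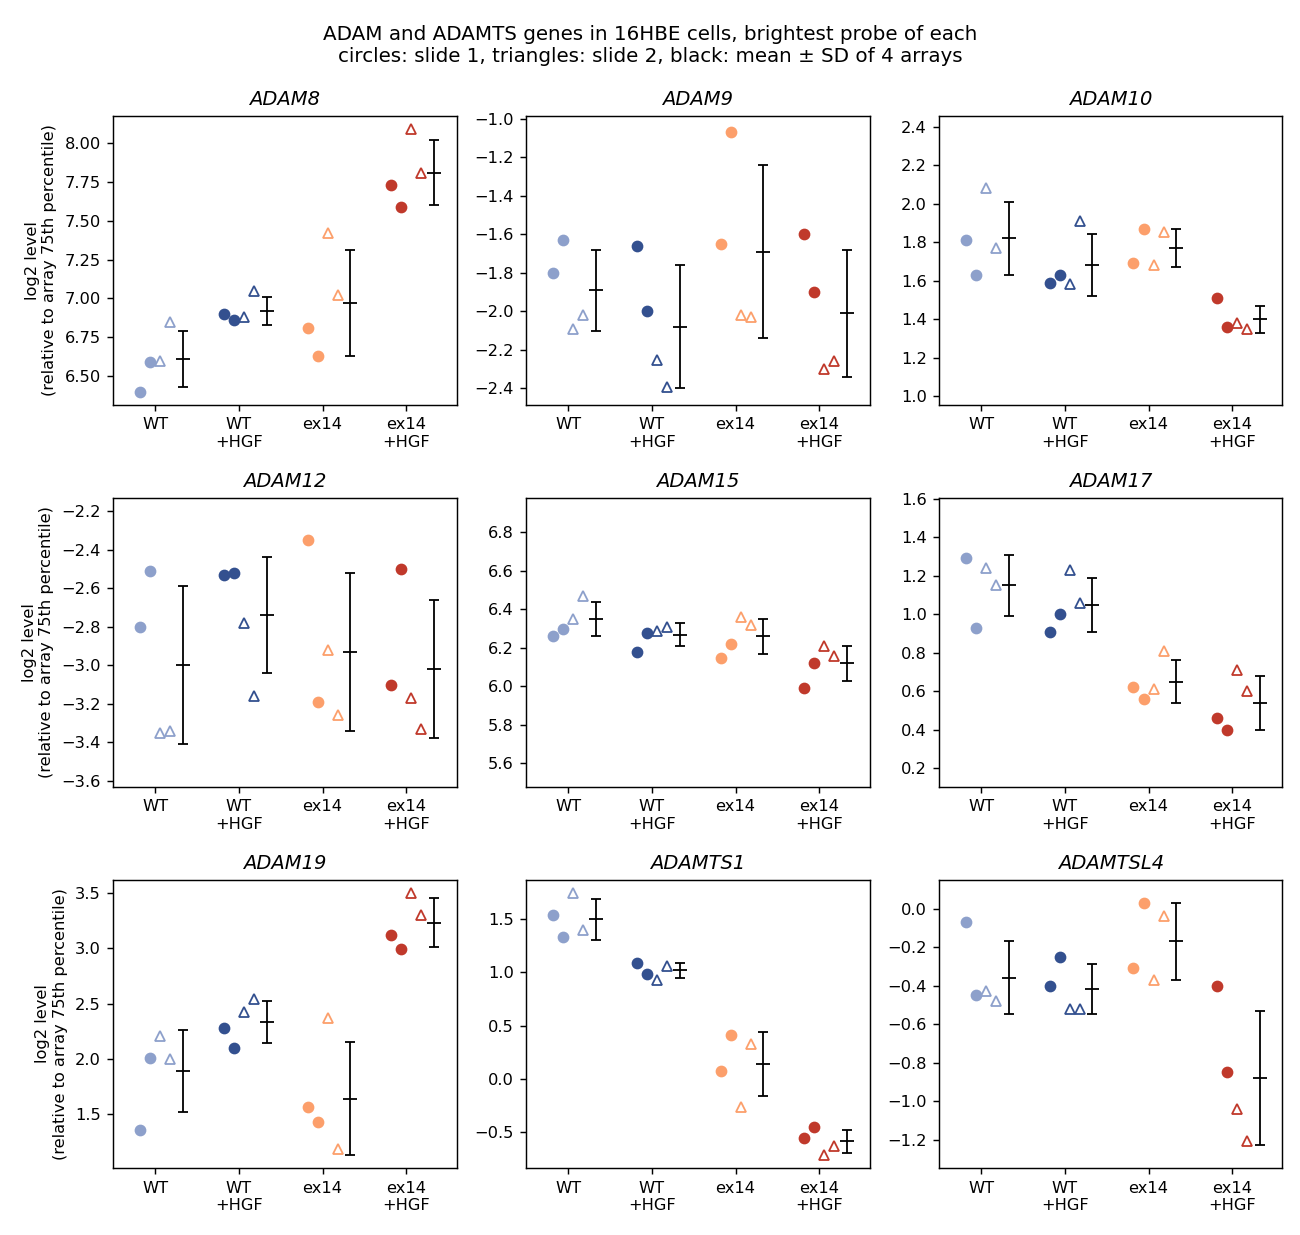
Level of the brightest probe of each gene (vertical axes, log2 relative to the 75th percentile of the array, each panel with its own range) on every array of the 4 conditions, circles for slide 1 and triangles for slide 2, with the mean ± SD of 4 arrays in black. ADAM8 and ADAM19 are highest in 16HBE-ex14+HGF. ADAMTS1 steps down from 16HBE-WT (1.5) over 16HBE-WT+HGF (1.02) and 16HBE-ex14 (0.14) to 16HBE-ex14+HGF (-0.59).

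ADAMTS1 is a secreted protease that cuts the proteoglycans versican and aggrecan. Its brightest probe lies at chr21:28209709-28209768 on the minus strand (NM_006988, base 3488). The levels were 1.54, 1.33, 1.75 and 1.40 in 16HBE-WT and 1.09, 0.99, 0.93 and 1.06 in 16HBE-WT+HGF. They were 0.07, 0.41, -0.27 and 0.33 in 16HBE-ex14 and -0.56, -0.45, -0.72 and -0.63 in 16HBE-ex14+HGF. The 4 conditions did not overlap at all and were ordered from 16HBE-WT through 16HBE-WT+HGF and 16HBE-ex14 down to 16HBE-ex14+HGF. Without HGF, ADAMTS1 was 2.58-fold lower in 16HBE-ex14 than in 16HBE-WT (-1.37 ± 0.14, adjusted p = 1.32e-05), and with HGF it was 3.05-fold lower (-1.61 ± 0.14, adjusted p = 2.72e-06). Both calls held under the same 13 alternatives, with treat (adjusted p = 0.00391 and 0.000331) and without each array in turn. HGF lowered it 1.65-fold in 16HBE-ex14 (-0.73 ± 0.14, adjusted p = 0.0107). In 16HBE-WT the difference was -0.49 ± 0.14, with an unadjusted p of 0.00321 in the limma fit and an adjusted p of 0.864.

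The second ADAMTS1 probe lies upstream of the first in the same transcript (base 3297, chr21:28209900-28209959). Its means were 0.16, -0.37, -1.33 and -2.18 in the same order of conditions, again with no overlap between neighbours. HGF lowered it in 16HBE-ex14 (-0.85 ± 0.14, adjusted p = 0.00394), and in 16HBE-WT it differed by -0.54 ± 0.14 (adjusted p = 0.796). With normexp the HGF differences in 16HBE-ex14 were -0.55 and -0.41 for the 2 probes, under the fold limit, and the calls were also lost with no scaling (-0.77 and -0.89, adjusted p = 0.138 and 0.0848). With only the 8 arrays compared, the differences stayed at -0.73 and -0.85, with adjusted p of 0.0842 and 0.0559.

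ADAMTSL4 is a secreted glycoprotein without protease activity that binds fibrillin-1 in microfibrils. It has 3 probes on 2 transcript models. A pair of them was designed on NM_025008, at base 2787 (chr1:150531065-150531124, the brightest) and base 2863 (chr1:150531141-150531200), and the third on NM_019032 (base 3763, chr1:150532922-150532981). The sequences of the pair on NM_025008 are shown because these probes were not called between the genotypes and the third one was.
ADAMTSL4, base 2787: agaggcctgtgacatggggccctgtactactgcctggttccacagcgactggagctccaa
ADAMTSL4, base 2863: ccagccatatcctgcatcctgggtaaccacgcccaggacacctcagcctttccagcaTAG
The capitals mark the stop codon that closes a reading frame with no other stop in the second sequence.

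The brightest ADAMTSL4 probe had levels of -0.07, -0.45, -0.43 and -0.48 in 16HBE-WT and -0.40, -0.25, -0.52 and -0.52 in 16HBE-WT+HGF. The levels were -0.31, 0.03, -0.37 and -0.04 in 16HBE-ex14 and -0.40, -0.85, -1.04 and -1.21 in 16HBE-ex14+HGF. The last condition lay below untreated 16HBE-ex14 with no overlap, though only just, and overlapped 16HBE-WT+HGF. With HGF the gene fell 1.63-fold in 16HBE-ex14 (-0.70 ± 0.16, adjusted p = 0.0303), with -0.48 on slide 1 and -0.92 on slide 2. In 16HBE-WT it differed by -0.06 ± 0.16. The probe at base 2863 fell by 1.06 ± 0.21 (adjusted p = 0.0127) in 16HBE-ex14, and the probe on NM_019032 differed by -1.0 ± 0.26 (adjusted p = 0.0515), with no overlap between the conditions in either.

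The call of the brightest ADAMTSL4 probe depended on the processing and on single arrays. It was lost under 5 of 13 alternatives, with normexp (-0.50, under the fold limit), with no scaling (adjusted p = 0.212), with scaling to the spike-in RNA (0.0676), with no filter on dim probes (0.0661) and with only the arrays compared (0.141). It was also lost without 16HBE-ex14 replicate 2 (-0.63, adjusted p = 0.112) or replicate 4 (-0.66, adjusted p = 0.105), and without 16HBE-ex14+HGF replicate 2 (-0.71, adjusted p = 0.0686), replicate 3 (-0.65, adjusted p = 0.106) or replicate 4 (-0.59, adjusted p = 0.101). The probe at base 2863 lost its call with no scaling (adjusted p = 0.0697), with only the arrays compared (adjusted p = 0.109) and without 16HBE-ex14 replicate 2 (-0.99, adjusted p = 0.0535) or replicate 4 (-0.92, adjusted p = 0.0508). The probe on NM_019032 gained one under 5 of 13 alternatives (adjusted p = 0.0192 to 0.0491), and without 16HBE-ex14 replicate 1 (-1.19, adjusted p = 0.0266) or replicate 3 (-1.09, adjusted p = 0.0458), without 16HBE-WT replicate 2 (adjusted p = 0.0448) and without 16HBE-WT+HGF replicate 3 (adjusted p = 0.0391).

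Between the genotypes, the probe of ADAMTSL4 on NM_019032 had levels of -0.66, -1.34, -0.75 and -0.72 in 16HBE-WT and -2.76, -1.93, -2.45 and -1.60 in 16HBE-ex14, with no overlap. It was 2.49-fold lower in 16HBE-ex14 without HGF (-1.32 ± 0.26, adjusted p = 0.00241) and 3.70-fold lower with HGF (-1.89 ± 0.26, adjusted p = 0.000136). The pair on NM_025008 differed by 0.18 ± 0.16 and 0.43 ± 0.21 without HGF and by -0.45 ± 0.16 and -0.44 ± 0.21 with HGF, and none of these was called (adjusted p = 0.504, 0.179, 0.0619 and 0.159). With no scaling the probe at base 2863 was called higher in 16HBE-ex14 without HGF (0.80, adjusted p = 0.0301), but the median difference of all probes was then 0.35. The brightest of the pair was called with HGF only without 16HBE-ex14+HGF replicate 1 (-0.61, adjusted p = 0.00723).

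The ADAMTSL4 probes were also compared with each other, by the difference between the probe on NM_019032 and the brightest one within each array. That difference was 1.5 lower (log2) in 16HBE-ex14 than in 16HBE-WT without HGF and 1.43 lower with HGF (exact permutation test over the 70 assignments of 4 arrays against 4, two-sided, p = 0.0286 in both, the smallest this design can give). These were 2 of 12 such comparisons over 3 genes, chosen after the values were seen, and after Benjamini-Hochberg adjustment over the 12 the p of this exact permutation test was 0.114. The third of the 12 comparisons at the smallest p was that of ADAM8, between the brightest probe and that at base 567 for the genotypes with HGF (0.59). Since the probes were chosen for this pattern and the adjusted p misses the limit, the values are given as a description.

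**Figure D3:**
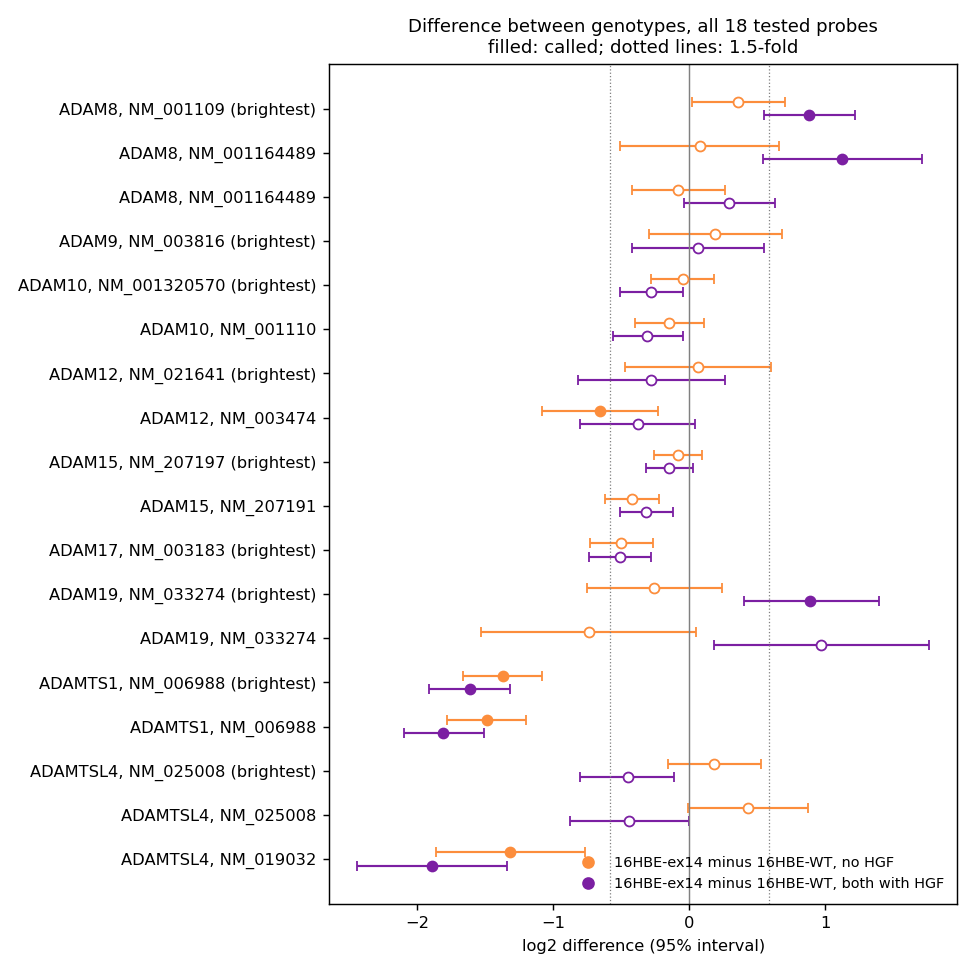
Log2 difference between the genotypes (horizontal axis, 95% intervals from limma) for all 18 tested probes, without HGF (orange) and with HGF (purple), each named by its gene and transcript model. Filled points were called. Both ADAMTS1 probes lie between -1.37 and -1.81 in both comparisons, and of the 3 ADAMTSL4 probes only that on NM_019032 is filled.

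ADAM10 and ADAM17 are the best known sheddases of epithelial cells. ADAM10 cuts Notch, E-cadherin and several ligands of the EGF receptor, and ADAM17, first found as the enzyme that releases TNF, cuts amphiregulin and other such ligands. ADAM10 was measured by 2 probes on chromosome 15, the brightest at chr15:58889401-58889460. Its levels were 1.69, 1.87, 1.68 and 1.85 in 16HBE-ex14 and 1.51, 1.36, 1.38 and 1.35 in 16HBE-ex14+HGF. The groups did not overlap, but the difference of -0.37 ± 0.11 was not called (adjusted p = 0.087). The second probe differed by -0.34 ± 0.12 (adjusted p = 0.172). In 16HBE-WT the brightest probe had levels of 1.81, 1.63, 2.08 and 1.77 without HGF and 1.59, 1.63, 1.58 and 1.91 with it. These overlapped, with a difference of -0.14 ± 0.11.

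ADAM17 had 1 probe, at chr2:9630133-9630192. Its levels were 1.29, 0.93, 1.24 and 1.15 in 16HBE-WT and 0.91, 1.00, 1.23 and 1.06 in 16HBE-WT+HGF. They were 0.62, 0.56, 0.61 and 0.81 in 16HBE-ex14 and 0.46, 0.40, 0.71 and 0.60 in 16HBE-ex14+HGF. All 8 16HBE-ex14 arrays lay below all 8 16HBE-WT arrays, and within a genotype the arrays with and without HGF overlapped. The gene was lower in 16HBE-ex14 by 0.50 ± 0.11 without HGF (1.42-fold, adjusted p = 0.00454) and by 0.51 ± 0.11 with HGF (1.42-fold, adjusted p = 0.00355), past the limit on p but under the 1.5-fold limit, so that it was not called. The differences with HGF were -0.11 ± 0.11 in 16HBE-ex14 (95% interval -0.34 to 0.12) and -0.10 ± 0.11 in 16HBE-WT (95% interval -0.33 to 0.13).

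ADAM9 and ADAM15 are broadly expressed membrane proteases, and ADAM15 carries an integrin-binding RGD motif in its disintegrin domain. ADAM9 had 1 probe, on the NM_003816 transcript, with mean levels without HGF of -1.89 ± 0.21 in 16HBE-WT and -1.69 ± 0.45 in 16HBE-ex14, and with HGF of -2.08 ± 0.32 and -2.01 ± 0.33 (SD, n = 4). All 4 conditions overlapped, and none of its differences was called. The 95% interval of its difference with HGF in 16HBE-ex14 ran from -0.81 to 0.17, which includes falls past the fold limit.

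The brightest ADAM15 probe (NM_207197, chr1:155035192-155035251) varied little, with group means between 6.12 and 6.35 and SDs of at most 0.09. Its difference with HGF in 16HBE-ex14 was -0.14 ± 0.08, with an interval from -0.32 to 0.03 that lies within a 1.5-fold change. The second ADAM15 probe (NM_207191, chr1:155030539-155030598) had levels of 1.83, 1.69, 1.73 and 1.86 in 16HBE-WT and 1.33, 1.22, 1.46 and 1.41 in 16HBE-ex14. These did not overlap, and the difference of -0.42 ± 0.09 passed the limit on p (adjusted p = 0.00518) at 1.34-fold. With HGF the genotypes differed by -0.32 ± 0.09 (adjusted p = 0.0233), also under the fold limit.

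ADAM12, or meltrin alpha, is made as a long membrane form and a short secreted form, and it can shed the ligand HB-EGF. The brightest of its 4 probes was designed on NM_021641, the transcript of the short form (base 2423, chr10:127731652-127731711), and is shown because of that design. Whether it also reads the long form was not tested.
ADAM12, base 2423: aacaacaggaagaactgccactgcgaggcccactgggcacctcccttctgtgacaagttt
Its means lay between -3.02 and -2.74 in the 4 conditions with SDs of 0.30 to 0.41, and no difference was called. A probe on NM_003474, the transcript of the long form (base 5488, chr10:127703443-127703502), had levels of -2.42, -2.85, -2.81 and -2.71 in 16HBE-WT and -2.87, -3.48, -3.44 and -3.63 in 16HBE-ex14. The groups did not overlap, though only just, and the probe was called lower in 16HBE-ex14 (-0.66 ± 0.20, 1.57-fold, adjusted p = 0.0318).

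That call of ADAM12 was lost under 8 of 13 alternatives, among them all 5 other background corrections and scalings (adjusted p up to 0.28). It was also lost without 16HBE-WT replicate 1 (-0.56, adjusted p = 0.0958) or replicate 4 (-0.66, adjusted p = 0.0583) and without 16HBE-ex14 replicate 2 (-0.61, adjusted p = 0.0764), replicate 3 (-0.63, adjusted p = 0.0743) or replicate 4 (-0.56, adjusted p = 0.0944). With HGF the genotypes differed by -0.38 ± 0.20 at this probe (adjusted p = 0.21). A second probe on NM_003474 (base 7935) was well above background on 2 of the 4 16HBE-WT arrays and on no other array. It was not tested, and no fold is given. A second probe on NM_021641 (base 3060) was not well above background on any array.

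Between the genotypes without HGF, 1 of the 9 genes was called by its brightest probe, ADAMTS1, against 9.25% of all genes. Together with ADAM17, 2 genes passed the limit on p alone, against 18.2% of all genes, and the same pair did not overlap between the genotypes, against 21.2%. By probe, 4 of 18 were called, all lower in 16HBE-ex14, against 9.40% of all probes: both of ADAMTS1, that of ADAMTSL4 on NM_019032 and that of ADAM12 on NM_003474. The median difference of the 9 genes was -0.05, and that of all tested genes was -0.01.

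With HGF in both genotypes, 3 of the 9 genes were called, ADAM8 and ADAM19 higher and ADAMTS1 lower in 16HBE-ex14, against 10.7% of all genes. With ADAM17, 4 passed the limit on p alone, against 20.6%. The genotypes did not overlap for 5 genes, these 4 and ADAM10 (lower), against 24.1%. By probe, 6 of 18 were called, against 10.8%. The median difference was -0.28, and that of all genes was 0. These comparisons share arrays with those of HGF within a genotype, and the members were picked with results of these arrays known.

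The difference between the HGF responses of the genotypes was tested as an interaction in the same limma fit. None of the 9 genes was called, nor was any probe on the array (0%). The unadjusted p was below 0.05 for 3 of 9 genes, ADAM8, ADAM19 and ADAMTSL4, against 4.60% of all genes. These 3 are the genes that the study singled out on the same samples. Their count is therefore not independent evidence that the responses of the family differ. The response of ADAM19 was larger in 16HBE-ex14 by 1.15 ± 0.33 (log2, SE), with 1.05 and 1.25 on the 2 slides (adjusted p = 0.642). For ADAM8 the responses differed by 0.52 ± 0.22 and for ADAMTSL4 by -0.64 ± 0.23. When the p values of the 5 contrasts were adjusted together, ADAM19 was called (adjusted p = 0.0497, just under the limit), as 1 of 162 probes called for the interaction in that way. For ADAMTS1 the responses differed by -0.24 ± 0.19, with an interval from -0.66 to 0.17.

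Promoter sequences of RefSeq on GRCh38.p14 were matched by symbol for 7 of the 9 genes, all but ADAM9 and ADAMTS1. The 250 bases before the start are shown for ADAM8 (chr10:133276869-133277118, minus strand) and ADAM19 (chr5:157575776-157576025, minus strand), which rose with HGF, and for ADAMTSL4 (chr1:150549158-150549407, plus strand), which fell.
ADAM8 promoter: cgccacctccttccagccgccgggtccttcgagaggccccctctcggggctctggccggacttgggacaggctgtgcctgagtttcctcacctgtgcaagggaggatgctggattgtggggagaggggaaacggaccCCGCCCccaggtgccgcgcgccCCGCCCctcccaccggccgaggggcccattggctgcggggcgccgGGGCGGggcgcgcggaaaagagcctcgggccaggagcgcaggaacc
ADAM19 promoter: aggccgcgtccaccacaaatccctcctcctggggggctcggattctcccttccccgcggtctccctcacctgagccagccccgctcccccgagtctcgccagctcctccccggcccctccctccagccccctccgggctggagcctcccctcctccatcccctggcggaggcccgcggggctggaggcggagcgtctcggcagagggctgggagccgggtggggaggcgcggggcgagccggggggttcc
ADAMTSL4 promoter: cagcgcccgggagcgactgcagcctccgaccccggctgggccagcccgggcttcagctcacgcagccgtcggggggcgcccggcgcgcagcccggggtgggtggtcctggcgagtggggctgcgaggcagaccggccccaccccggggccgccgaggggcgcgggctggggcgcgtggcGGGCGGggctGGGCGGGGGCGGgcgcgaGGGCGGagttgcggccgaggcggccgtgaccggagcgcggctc
The capitals mark GC boxes (GGGCGG on either strand), of which ADAM8 has 3, ADAMTSL4 has 4 and ADAM19 has none in this window. Of the 7 promoters, 6 hold a GC box, against 42.6% of all 35116 promoters of the table. No match was found in the 7 for an AP-1 element (TGANTCA, either strand), which 6.57% of all promoters hold. A match to the core of ETS sites (CCGGAA, either strand) was found in 1 of the 7, ADAM17, and in 14.5% of all promoters. The 3 promoters shown have 73.6%, 76.4% and 83.6% G and C, against a median of 58% over the table. All 7 lie above that median, from 68.4% (ADAM10) to 83.6% (ADAMTSL4), and a GC box consists of G and C alone. Whether the members hold more GC boxes than promoters of equal content was not tested.

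Genes linked to ADAM and ADAMTS proteins were described in 6 lists, with 1 probe per gene. None of the 6 tested of 16 other ADAM genes and none of the 12 tested of 22 other ADAMTS and ADAMTS-like genes was called with HGF in 16HBE-ex14 cells. Their median differences were 0.18 and 0.22, against 0.06 for all genes, and the other members of these lists were not well above background on enough arrays. Between the genotypes, 1 gene of each list was called, without HGF (against 9.25% of all genes) and with HGF (against 10.7%), both higher in 16HBE-ex14. ADAMTSL3 was higher by 1.49 ± 0.17 without HGF (adjusted p = 4.18e-05). The other was ADAM11, which was well above background on 1 of 4 16HBE-WT arrays, 2 of 4 16HBE-WT+HGF arrays and all 8 16HBE-ex14 arrays. It passed the filter through the arrays on which it was high, so its call is not read as a result and no size is given.

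Of the inhibitors, 3 of 5 were tested, and TIMP1, a secreted inhibitor of metalloproteases that acts on ADAM10, was called with HGF in 16HBE-ex14, against 2.11% of all genes. Its level was 1.59, 1.37, 2.15 and 1.68 in 16HBE-ex14 and 2.12, 2.36, 2.33 and 2.37 in 16HBE-ex14+HGF. It rose by 0.60 ± 0.14 (adjusted p = 0.0376), with 1 array of overlap, and without HGF it was lower in 16HBE-ex14 than in 16HBE-WT (-0.75 ± 0.14, adjusted p = 0.0021). Among 12 tested genes for the maturation and trafficking of ADAM10 and ADAM17, 2 were called with HGF in 16HBE-ex14, against the same 2.11%. Both encode tetraspanins that partner with ADAM10: TSPAN5 rose by 1.04 ± 0.11 (adjusted p = 0.000571) and TSPAN15 fell by 0.60 ± 0.12 (adjusted p = 0.0145). The levels of TSPAN5 were 0.43, 0.09, 0.50 and 0.25 in 16HBE-ex14 and 1.24, 1.2, 1.52 and 1.46 in 16HBE-ex14+HGF, with a wide gap between them, while ADAM10 itself was not called. In 16HBE-WT, where no gene was called, TSPAN5 differed by 0.32 ± 0.11 and TSPAN15 by -0.41 ± 0.12. Between the genotypes with HGF, 2 of the 12 genes were called, against 10.7% of all genes. TSPAN5 was higher in 16HBE-ex14 by 0.95 ± 0.11 (adjusted p = 4.18e-05) and TSPAN33 by 0.59 ± 0.11 (adjusted p = 0.00116).

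Of 27 tested membrane proteins known to be shed, 4 were called with HGF in 16HBE-ex14, against 2.11% of all genes. AREG, which encodes the EGF receptor ligand amphiregulin, rose by 0.72 ± 0.11 (adjusted p = 0.00249), JAG1, a Notch ligand, by 1.48 ± 0.21 (adjusted p = 0.00181) and the hyaluronan receptor CD44 by 0.80 ± 0.13 (adjusted p = 0.00498). The adhesion molecule L1CAM fell by 0.97 ± 0.19 (adjusted p = 0.0116). The median of the list was 0. In 16HBE-WT, where no gene was called, the differences with HGF were 0.53 for AREG, 0.41 for JAG1, 0.36 for CD44 and -0.56 for L1CAM. Without HGF, AREG, EREG and TNF were higher and IL1R2, L1CAM and ALCAM lower in 16HBE-ex14, against 9.25% of all genes called. ALCAM differed most, by -3.21 ± 0.21 (adjusted p = 2.8e-07). Of 9 tested matrix substrates and partners, 1 was called with HGF in 16HBE-ex14, against 2.11% of all genes. It was NID1, the basement membrane protein nidogen-1, which rose (0.68 ± 0.13, adjusted p = 0.0113). Between the genotypes without HGF, NID1 was higher in 16HBE-ex14 (1.53 ± 0.13, adjusted p = 3e-06) and FN1, fibronectin, lower (-1.34 ± 0.20, adjusted p = 0.000293), against 9.25% of all genes called.

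**Figure D4:**
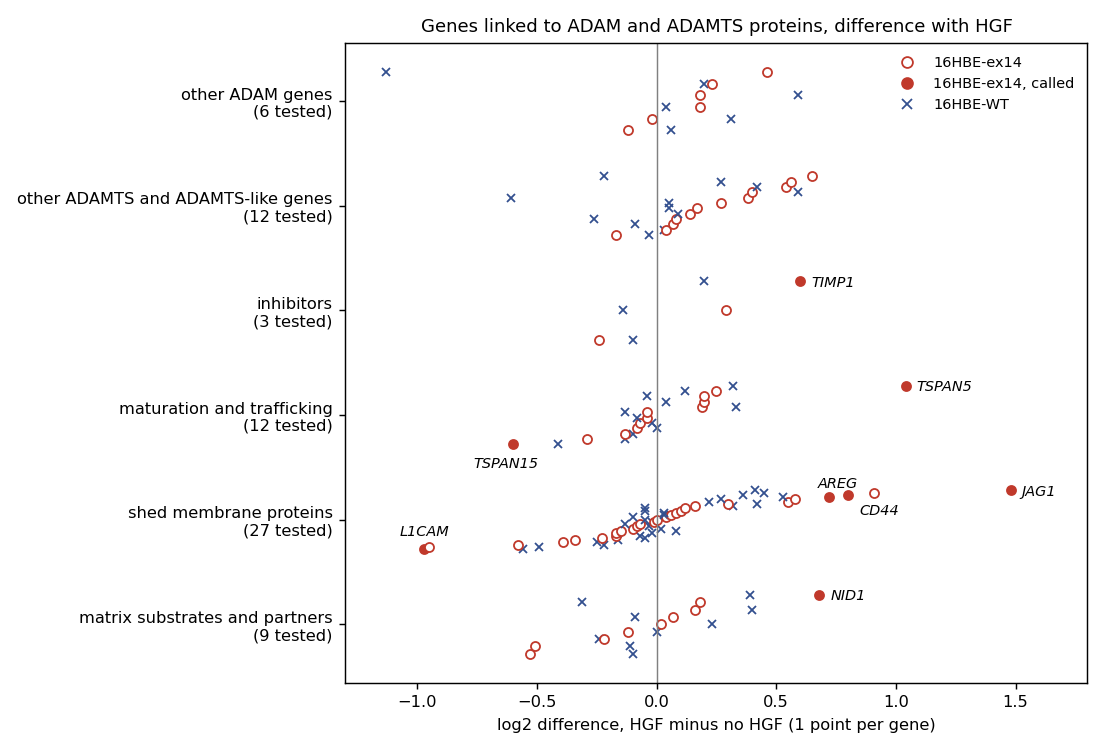
Log2 difference between arrays with and without HGF (horizontal axis, 1 point per gene) for the tested genes of 6 lists, in 16HBE-ex14 (circles, filled where called) and 16HBE-WT (crosses). The called genes are named. None is an ADAM or ADAMTS gene, and JAG1 lies farthest to the right at 1.48.

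For each of the 4 genes called by its brightest probe, the 3 genes with the most similar pattern over the 16 arrays were taken from 26335 by Pearson's r, as a description, since the 16 arrays share their conditions and slides. For ADAM8 they were CCNE1 (0.98), FERMT1 (0.98) and a transcript known only by its Ensembl name. For ADAM19 they were SMIM29 (0.98), MYH16 (0.97) and TOX2 (0.97), and for ADAMTS1 they were JPH2 (0.99), CSPG4 (0.99) and IGFBP3 (0.98). ADAMTSL4 had none as close, with SMIM5 at 0.94, KIAA1522 at 0.91 and PNPLA6 at 0.90.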

How the data were processed

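Gene expression was measured with Cy3-labelled cRNA hybridised to 16 one-colour Agilent arrays of 60-base probes, 4 per condition. The authors deposited scanner files of Agilent Feature Extraction 10.7.3.1, whose processed intensity per spot is linear, background-subtracted and detrended within its array but not scaled across arrays. A table of all arrays, also deposited, differed from these files at 0 of 62976 spots and was not used further. The authors compared conditions with limma. Their scaling and filter are not given in the sources used here.

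In R 4.3.3 with limma 3.58.1, outlier spots were left out (0 at the members), log2 was taken, the 75th percentile over non-control spots subtracted, and spots of a probe averaged. A probe was tested if it was well above background on 4 or more of the 16 arrays, with 1 mean per condition over all 16 arrays, empirical Bayes moderation and 5 contrasts (HGF in each genotype, the genotypes without and with HGF, and their interaction), each with its own Benjamini-Hochberg adjustment. The limits on p and fold are those of the study. The number of arrays sets the precision, as intensities carry no counts. SDs measure the spread between the arrays of a condition, which may include cultures grown apart. The p values of limma rest on a spread that all conditions share for a probe, moderated over all tested probes. The fit and the exact permutation test were checked on simulated data. Figures were drawn with matplotlib 3.10.9 (Python 3.11.15).

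The members, the 6 gene lists, the marker lists (epithelial, fibroblast, leukocyte, endothelial) and the tests were chosen with earlier results of these data known. Besides the members and markers, only called genes of a list are named, and the closest 3 genes by pattern for each called member. Of the leukocyte markers 3 of 4 were on the array and 2 were well above background on every array, as were 2 of 4 endothelial markers. The alternatives were normexp (offset 50), quantile normalization, scaling to the median or to 7 E1A spike-in probes, no scaling, other filters, no removal of outlier spots, blocks for slide or for array row, another prior, array weights, only the compared arrays, no fold limit, treat, joint adjustment, any probe of a gene, and leaving out each array. The offset of normexp is added to every intensity and so shrinks the folds of dim probes. Probe positions are those of the array files on hg19. No annotation of that build was at hand, so exons and UTRs are not given. Promoters come from the RefSeq table on GRCh38.p14.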

Additional observations from a re-analysis of the deposited data

Results flagged for a closer look

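Among the 72 groups of 4 arrays formed by the 18 tested probes, 4 held an array that lay far from the others by Dixon's criterion at 95%, about as many as chance flags (1 in 20 groups). The second ADAM19 probe read -1.70 on 16HBE-ex14+HGF replicate 3, against -2.37 to -2.27 on the other arrays of that condition. The brightest ADAMTSL4 probe read -0.07 on 16HBE-WT replicate 1, against -0.48 to -0.43, and the ADAMTSL4 probe on NM_019032 read -1.34 on 16HBE-WT replicate 2, against -0.75 to -0.66. The brightest ADAM10 probe read 1.91 on 16HBE-WT+HGF replicate 4, against 1.58 to 1.63. No member probe was called for a difference between the HGF responses of the genotypes, and none moved in opposite directions in them without overlap.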

How the results depend on the processing

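For HGF in 16HBE-ex14, the count of 4 genes called fell to 2 with normexp or E1A spike-in scaling, to 1 with no scaling and with only the compared arrays, and to 0 with treat, and it was 3 to 4 without single arrays. Between the genotypes without HGF, the count of 1 became 2 with no scaling (ADAM8, higher) or no fold limit (ADAM17, lower) and 3 when any probe of a gene counted, and stayed at 1 without each array. Between those with HGF, the count of 3 became 1 with treat and ran from 3 to 4 without single arrays. For HGF in 16HBE-WT it was 0 throughout, and for the difference of the responses it was 0 except for 1 gene, ADAM19, with joint adjustment. No called difference of a member changed sign. With array row as a replicate block, which the labels do not give as a pairing, the counts by brightest probe were 4, 0, 1, 3 and 0 for HGF in 16HBE-ex14, HGF in 16HBE-WT, the genotypes without and with HGF, and the interaction, as without it. Arrays of a slide deviated together whether in the same row (median r 0.20) or not (0.21), and arrays of different slides deviated apart (median r -0.20). In a principal component analysis of the tested probes, component 2 held 15.1% of the variance and followed slide (R2 0.969). The main fit had no term for slide. With slide as a block, 825 probes were called for HGF in 16HBE-ex14, against 693 in the main fit. Scaling to the array median moved the median difference of all probes with HGF in 16HBE-ex14 from 0.05 to -0.11, and 24.1% of its 730 calls were then higher, against 52.2% of 693. No scaling moved that between the untreated genotypes to 0.35. Probes near background carry wide errors, and changes below it were not measurable.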
